A study of Mus musculus with 14 samples.

Results

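The Hox genes were described in mouse tail fibroblasts from 39 of the 43472 genes listed in each of 2 tables of normalised counts. They were chosen by symbol alone, as Hox followed by a cluster letter from a to d and a number, which took in 11 HoxA, 10 HoxB, 9 HoxC and 9 HoxD genes and left out the antisense and intergenic RNAs of the clusters. Primary fibroblasts were isolated from tail tips of C57BL/6 mice, grown as a monolayer and wounded with a scratch, so that every library came from wounded cells. The cells were left untreated or received AMG (autologous micrograft), a filtered extract of disrupted mouse skin that was diluted 1:10 in growth medium. Replicate 1 gave 1 untreated and 1 AMG-treated library at each of 1, 5, 12 and 24 h (8 libraries), and replicates 2, 3 and 4 gave 3 untreated and 3 AMG-treated libraries at 5 h. The age of the mice was not given in the sources used here, and replicates are described as biological without saying whether they came from separate mice, so that p-values measure only the spread between these samples.

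Hox genes code for homeodomain transcription factors that give cells their position along the body axis. They stand in 4 clusters, and within a cluster the genes of low paralogue number are used towards the head and those of high number, the posterior genes, towards the tail, the ends of the limbs and the genital region. Fibroblasts of adult skin keep such a Hox pattern in culture, and it is known to differ between body sites. Hox proteins bind DNA together with TALE cofactors (Pbx, Meis and Pknox proteins), and Polycomb and Trithorax complexes keep the clusters silent or active.

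The results below turn mostly on paralogue groups 10 to 13, so the homeoboxes of the 3 active group 13 genes and of Hoxc12 are shown, each 180 coding bases from GENCODE M21 (GRCm38, the build mm10), 5′ to 3′ on the coding strand. Capitals mark codons 42 to 58 of the 60, which code for the recognition helix that lies in the major groove of DNA. Hoxa13 is at chr6:52258928-52259107 on the minus strand, Hoxb13 at chr11:96196020-96196199, Hoxc13 at chr15:102927210-102927389 and Hoxc12 at chr15:102938308-102938487, all 3 on the plus strand, and each of the 4 homeoboxes lies within 1 exon.
Hoxa13: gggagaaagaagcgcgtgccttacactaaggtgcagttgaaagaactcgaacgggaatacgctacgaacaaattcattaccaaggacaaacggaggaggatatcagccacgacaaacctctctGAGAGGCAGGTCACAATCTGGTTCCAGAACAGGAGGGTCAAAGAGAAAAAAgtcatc
Hoxb13: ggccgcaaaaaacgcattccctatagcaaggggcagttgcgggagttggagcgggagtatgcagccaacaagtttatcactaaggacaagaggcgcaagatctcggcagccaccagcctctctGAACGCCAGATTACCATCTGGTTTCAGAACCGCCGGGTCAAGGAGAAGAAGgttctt
Hoxc13: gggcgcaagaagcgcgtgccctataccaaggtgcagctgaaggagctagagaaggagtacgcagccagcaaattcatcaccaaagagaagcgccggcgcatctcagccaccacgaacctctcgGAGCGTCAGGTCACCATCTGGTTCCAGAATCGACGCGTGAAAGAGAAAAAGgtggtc
Hoxc12: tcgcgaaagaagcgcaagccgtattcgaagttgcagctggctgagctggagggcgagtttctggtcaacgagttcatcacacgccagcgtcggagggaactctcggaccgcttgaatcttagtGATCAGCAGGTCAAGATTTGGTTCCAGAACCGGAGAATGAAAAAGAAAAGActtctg
Hoxa13 and Hoxc13 shared 139 of the 180 bases (77.2%), Hoxb13 and Hoxc13 shared 133 (73.9%) and Hoxc12 and Hoxc13 shared 112 (62.2%). No pair among the 28 genes that were on shared a run of 50 identical bases in the homeobox, which is the length of the reads (the longest was 47). Of all 39 genes 1 pair did, Hoxa6 and Hoxb4, with 52 bases, so that reads from that stretch cannot be told apart.

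The libraries held 12545537 to 34696529 reads on genes, and a count of 3 reads was worth a normalised count of 1.62 to 5.22. Ribosomal protein genes took 6.35% of the reads in the untreated library and 4.63% in the AMG-treated library of replicate 1 at 5 h and 1 h, respectively, against 2.03 to 3.10% in the other 12, so that results of replicate 1 are given with and without both. The label fibroblast was checked against markers: all 11 fibroblast markers were above a mean of 10 in both tables, and Col1a1, a collagen chain, had a mean of 95663 in replicate 1. Of the keratinocyte markers Krt1 and Dsg3 were at 0 in every library and Krt5 and Krt14 had means of at most 0.725. However, 3 of the 10 reached a mean of 10 in replicate 1 and 3 did in replicates 2 to 4. Among them were Dsp, with means of 342 and 127, and Krt10, with 75.4 and 34.1. Keratinocyte, leukocyte, muscle, endothelial, cartilage and Schwann cell or melanocyte markers were thus each present in part, as is given below beside the AMG comparison.

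Of the 39 genes 28 were on in replicate 1 and 26 in replicates 2 to 4, where on means a mean normalised count of at least 10 over the libraries of a table. HoxC was on throughout (9 of 9 genes in both tables), HoxB in 9 of 10 and HoxA in 9 of 11 genes of replicate 1 and 8 of 11 of replicates 2 to 4. HoxD was nearly silent, with 1 of 9 genes on in replicate 1 and none in replicates 2 to 4. By paralogue number, 8 of 12 genes of groups 10 to 13 were on in both tables, and the other 4 were the HoxD genes. Groups 1 to 3 had 4 of 8 genes on, groups 4 to 8 had 13 of 15 in replicate 1 and 11 of 15 in replicates 2 to 4, and group 9 had 3 of 4.

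Levels of different genes were compared as RPKM, the reads per kilobase of exon and per 1000000 reads on genes (RPM without the division by length). Hoxb13, the last gene of its cluster and known from the tail bud, hindgut and urogenital region, had a mean of 91.8 RPKM in replicate 1 and Hoxb9 one of 44.8. Hoxb13 was above Hoxb9 in the 4 untreated libraries of replicate 1 (83.3 to 159 against 35.8 to 53.9), whereas Hoxb9 was above Hoxb13 in the AMG-treated ones of 5, 12 and 24 h, so that the ranges over the 8 libraries overlapped. In replicates 2 to 4 Hoxb9 was above Hoxb13, with 35.7 for Hoxb9 (31.9 to 41.02 over the 6 libraries) and 18.0 for Hoxb13 (10.4 to 24.7), and the ranges of these neighbours did not overlap. Hoxc13, which acts in hair and nail formation, came next in both tables with 11.1 and 10.9. Hoxc10, Hoxc12, Hoxb6, Hoxb7 and Hoxa11 followed at 8.19 to 10.2 in replicates 2 to 4. Over untreated and AMG-treated libraries together Hoxc10 ranged from 5.68 to 14.9, Hoxc12 from 2.39 to 17.5 and Hoxb6 from 3.08 to 14.7, which overlap. These ranges hold the AMG differences given below, which go opposite ways in Hoxb6 and Hoxc12. They therefore do not give the order of these genes within the untreated or the AMG-treated libraries. HoxC split into a low and a high part: Hoxc4, Hoxc5, Hoxc6, Hoxc8 and Hoxc9 lay at 0.22 to 0.71 in replicates 2 to 4, and Hoxc10 to Hoxc13 at 6.31 to 10.9. HoxA showed the same step, from 0.04 to 1.54 for Hoxa2 to Hoxa9 to 3.67 to 8.19 for Hoxa10, Hoxa11 and Hoxa13. HoxB had no such low part outside Hoxb1, since Hoxb2 to Hoxb8 lay at 2.29 to 8.49.

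**Figure D1:**
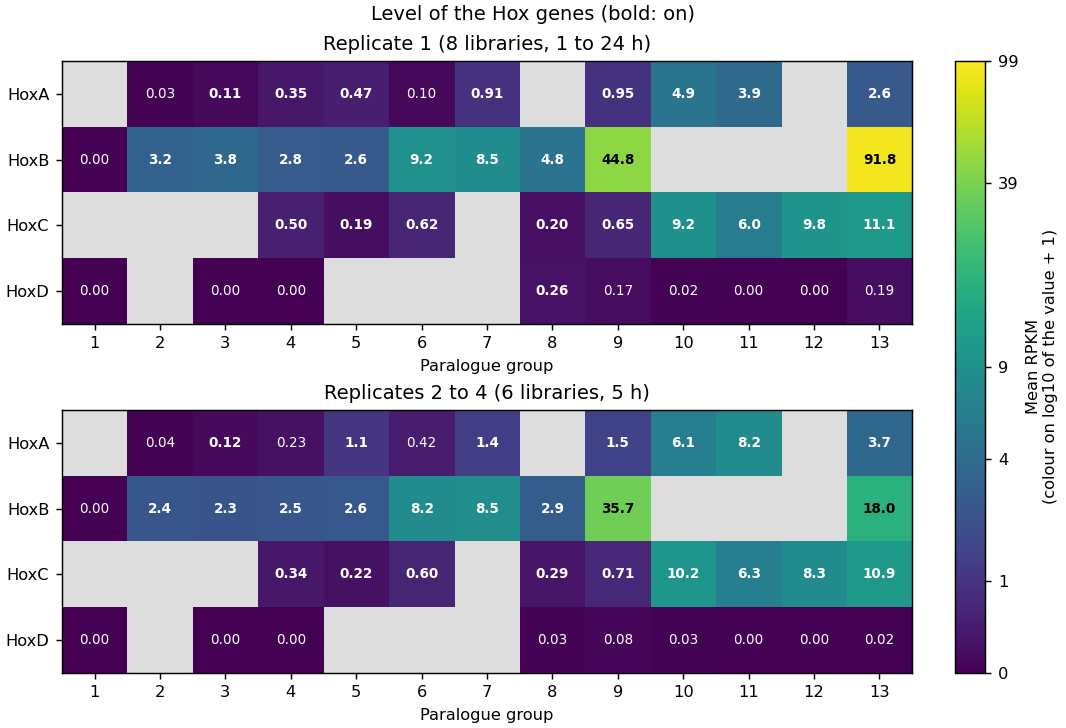
Mean level of the Hox genes in RPKM, by cluster (rows) and paralogue group (columns), in replicate 1 (top, 8 libraries) and replicates 2 to 4 (bottom, 6 libraries). Colour is on the log10 of the value + 1, grey marks positions with no gene or none shown, and bold marks genes that were on. Hoxb9 (44.8 and 35.7) and Hoxb13 (91.8 and 18.0) stand above the rest and the HoxD row is near 0.

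Of the genes that were off, some had few or no reads at all. Hoxb1, the hindbrain gene of its cluster, and Hoxd4 and Hoxd12 had no read in any of the 14 libraries, which allows a level of up to 0.0106 RPM over all 283393445 reads (3 reads, counting error only). Hoxd1, Hoxd3 and Hoxd11 had at most 1 read in a library and Hoxd10 and Hoxa2 at most 3. Hoxd3 and Hoxd4 share 62.3% and 52.3% of their exon bases with other genes of the same strand, where a read cannot be given to 1 gene, so their values are uncertain. The others spread from below 1 up to the limit of 10. In replicate 1, Hoxa4 (mean 10.95), Hoxc5 (11), Hoxc8 (11.3), Hoxa3 (13.9) and Hoxd8 (14.0) lay just inside it, Hoxd13 (9.63) and Hoxd9 (7.48) just outside and Hoxa6 at 1.59. In replicates 2 to 4, Hoxc5 (12.5) and Hoxa3 (13.6) lay just inside, Hoxa4 (6.85) and Hoxa6 (6.70) just outside and Hoxd9, Hoxd8 and Hoxd13 at 3.25, 1.65 and 0.79. At 5 h the untreated library of replicate 1 had the highest values of the 14 libraries for Hoxd9 (24.6) and Hoxd13 (21.3), while Hoxd8 had 24.6 there and 28.8 in the AMG-treated library of 24 h.

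At 5 h the question was whether AMG changed the Hox pattern of wounded fibroblasts. All 8 active genes of paralogue groups 10 to 13 had lower means with AMG in replicates 2 to 4, by 0.56 to 2.29 on the log2(normalised count + 1) scale, while Hoxb2 and Hoxb4 to Hoxb8 had higher means. In the fit without pairing, 1 of 26 Hox genes tested fell (Hoxc12) and 0 rose by limma, where 0.267% of the 13096 genes tested were called lower and 0.97% higher. At an unadjusted p under 0.05 there were 7 lower and 1 higher, where 11.1% of all genes were lower and 11.9% higher. With the replicate number as a block in limma, 7 Hox genes fell and 3 rose, which is 26.9% and 11.5% of those tested, against 19.3% lower and 17.9% higher of all genes, so the count over all Hox genes was near that of the genome. The 7 that fell were 7 of the 8 active genes of groups 10 to 13, and the 3 that rose were Hoxb2, Hoxb5 and Hoxb6. Since RNA was taken from whole cultures, fewer cells of a kind and less RNA per cell cannot be told apart.

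Hoxc12, which lies between Hoxc13 and Hoxc11 and is known from the posterior body and hair follicles, had normalised counts of 325, 230 and 218 in the untreated libraries of replicates 2, 3 and 4 and of 45.8, 59.0 and 49.7 in the AMG-treated ones. All treated values were below all untreated ones, with a log2 ratio of -2.80, -1.94 and -2.11 in the 3 pairs. The means were 258 ± 58.2 and 51.5 ± 6.80 (SD, n = 3 each), a log2 difference of -2.29 (SE 0.24, limma adjusted p = 0.0190, and 0.000137 with the block). The call was lost without the untreated or the AMG-treated library of replicate 2 or of replicate 4 (limma adjusted p of 0.0866 to 0.123), while the difference stayed between -2.11 and -2.39. In replicate 1 at 5 h the counts were 93.4 untreated and 95.9 with AMG, so that the fall was not seen there, and both were below the 234 to 270 of the untreated libraries at the other times. That untreated library of 5 h is the one with the highest ribosomal protein share. Pooling the 4 replicates of 5 h in edgeR with the table as a batch gave -1.76 (edgeR adjusted p = 0.0987).

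The other HoxC genes at this end had smaller differences. Hoxc11 had 281, 297 and 300 untreated and 163, 184 and 177 with AMG, a log2 difference of -0.74 (SE 0.15, limma adjusted p = 0.0740, and 0.00468 with the block). Hoxc10, of which 166 exon bases are shared with Hoxc5 on the same strand, had 477, 498 and 403 untreated and 253, 289 and 214 with AMG, a difference of -0.87 (SE 0.18, limma adjusted p = 0.0713, and 0.00126 with the block). In both genes the groups did not overlap and the fall was seen in 3 of 3 pairs. Hoxc13 had 812, 596 and 517 untreated and 392, 394 and 225 with AMG, a difference of -0.95 (SE 0.28, limma adjusted p = 0.123, and 0.00145 with the block), again with no overlap. Hoxc9 ended this run, with 30.8, 19.5 and 38.9 untreated and 59.8, 15.6 and 28.2 with AMG. Its groups overlapped (difference 0.06, SE 0.56).

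The posterior HoxA genes varied more between replicates. Hoxa10, a gene of the trunk and limbs, had 608, 405 and 479 untreated and 276, 280 and 134 with AMG, with no overlap and a log2 difference of -1.16 (SE 0.32, limma adjusted p = 0.115, and 0.00369 with the block). Hoxa13, a gene of the limb ends and genital tract, had 318, 76.6 and 359 untreated and 123, 57.4 and 66.6 with AMG. The groups overlapped because replicate 3 was low in both, but 3 of 3 pairs fell, by 1.39 on average (SE 0.62, limma adjusted p = 0.237, and 0.00915 with the block). Hoxa11 had 490, 283 and 457 untreated and 276, 347 and 207 with AMG. It was higher in replicate 3 and lower in the other 2 pairs (difference -0.56, SE 0.28, limma adjusted p = 0.283, and 0.0915 with the block). Of its exon bases 35.0% lie opposite to exons of Hoxa11os, an antisense RNA, and the strand setting of the counting was not stated. Hoxa9 had 228, 103 and 225 untreated and 177, 88.5 and 129 with AMG, lower in 3 of 3 pairs with groups that overlapped (difference -0.46, SE 0.40, limma adjusted p = 0.512, and 0.0765 with the block).

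In the HoxB cluster the last gene was called lower with the block only, and its neighbour did not pass the test in either fit. Hoxb13 had 804, 883 and 1023 untreated and 425, 640 and 581 with AMG. The groups did not overlap, and the log2 difference was -0.73 (SE 0.19, limma adjusted p = 0.105, and 0.00223 with the block). Hoxb9 had 1779, 1508 and 1981 untreated and 1651, 1474 and 1760 with AMG. It was lower in 3 of 3 pairs, with groups that overlapped (difference -0.10, SE 0.14, limma adjusted p = 0.700, and 0.391 with the block).

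**Figure D2:**
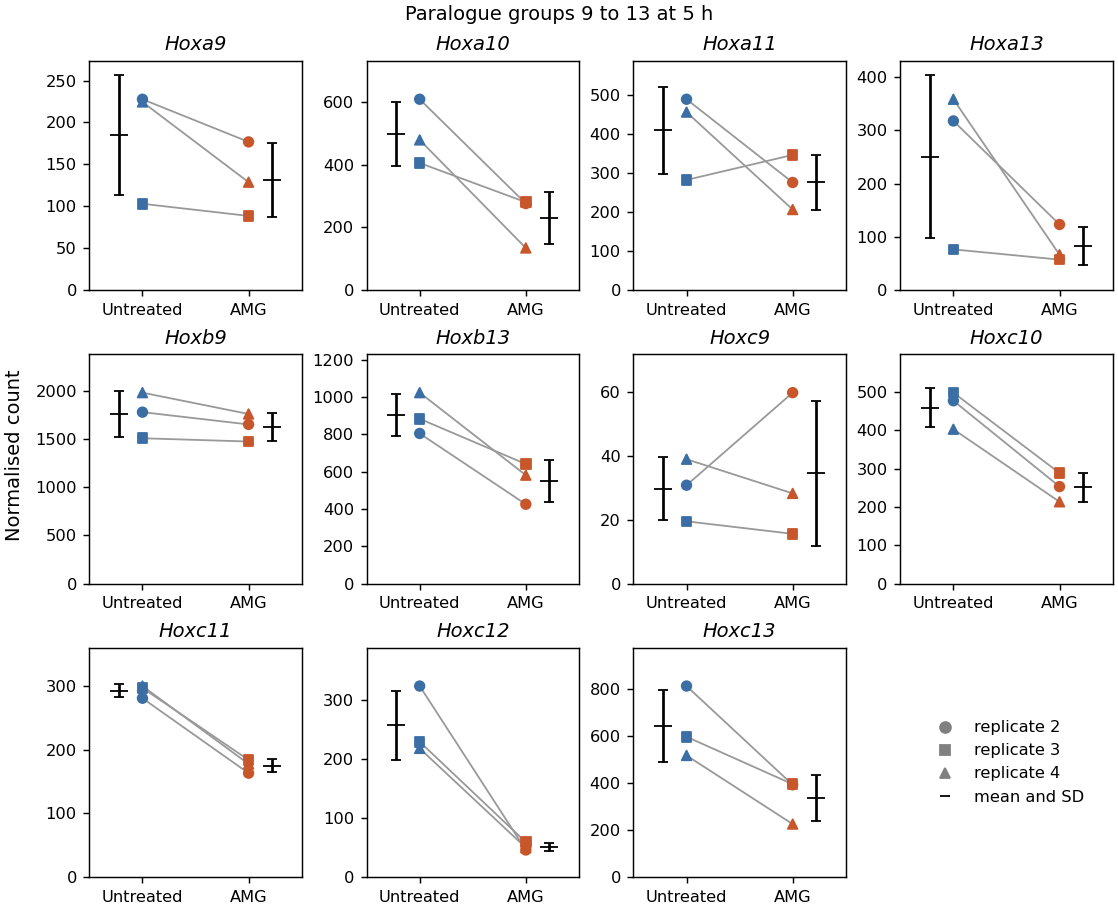
Normalised counts (y axis, from 0) of the 11 active genes of paralogue groups 9 to 13 in the untreated (blue) and AMG-treated (orange) libraries at 5 h, with a grey line joining the libraries of 1 replicate number and black bars for the mean and SD of each group. Hoxc10, Hoxc11, Hoxc12, Hoxc13, Hoxa10 and Hoxb13 show 2 groups that do not overlap, while those of Hoxa9, Hoxa11, Hoxa13, Hoxb9 and Hoxc9 overlap.

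The middle HoxB genes moved the other way. Hoxb5 had 110, 34.8 and 98.4 untreated and 270, 82.8 and 200 with AMG, higher in each pair by 1.01 to 1.29 on the log2 scale, although the groups overlapped because replicate 3 was low in both. The log2 difference was 1.18 (SE 0.58, limma adjusted p = 0.273, and 0.00200 with the block). Hoxb6 had 252, 106 and 278 untreated and 537, 161 and 479 with AMG, a difference of 0.82 (SE 0.56, limma adjusted p = 0.402, and 0.00372 with the block). Hoxb2, a gene of the hindbrain and neck region, had 119, 102 and 120 untreated and 223, 125 and 250 with AMG. Its groups did not overlap (difference 0.75, SE 0.30, limma adjusted p = 0.196, and 0.0166 with the block). Hoxb4, Hoxb7 and Hoxb8, with means of 116, 242 and 142, had differences of 0.49, 0.40 and 0.16 that did not pass the test in either fit. Hoxb3, with a mean of 178, was 201.8 ± 3.77 untreated and 155.1 ± 13.9 with AMG (SD, n = 3 each), and its difference of -0.38 did not pass the test in either fit. Exons of Hoxb3os lie opposite to 52.9% of its exon bases and to 27.3% of those of Hoxb2.

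The genes of low number in HoxA and HoxC had lower means than those of groups 10 to 13 in these clusters, and none passed the test in either fit. Hoxa3, with a mean of 13.6, had a difference of -1.25 and groups that did not overlap, and Hoxa5 and Hoxa7, with means of 37.6 and 72.1, had -0.44 and -0.36. Hoxc4, Hoxc5, Hoxc6 and Hoxc8, with means of 12.5 to 26.3, had differences of -1.25 to 0.20. Taking the 26 tested genes by cluster, 8 of 8 in HoxA, 3 of 9 in HoxB and 7 of 9 in HoxC had a difference below 0, with medians of -0.60, 0.40 and -0.74, beside 51.6% of all genes and a median of -0.02. In 9 Hox genes every treated value was below every untreated one and in 2 every treated value was above, which is 34.6% and 7.69% of those tested, beside 13.6% and 15.1% of all genes. Groups that did not overlap made up 6 of the 8 genes of paralogue groups 10 to 13 (all lower), 4 of 4 of groups 1 to 3 (3 lower and 1 higher), 1 of 11 of groups 4 to 8 (higher) and 0 of 3 of group 9.

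**Figure D3:**
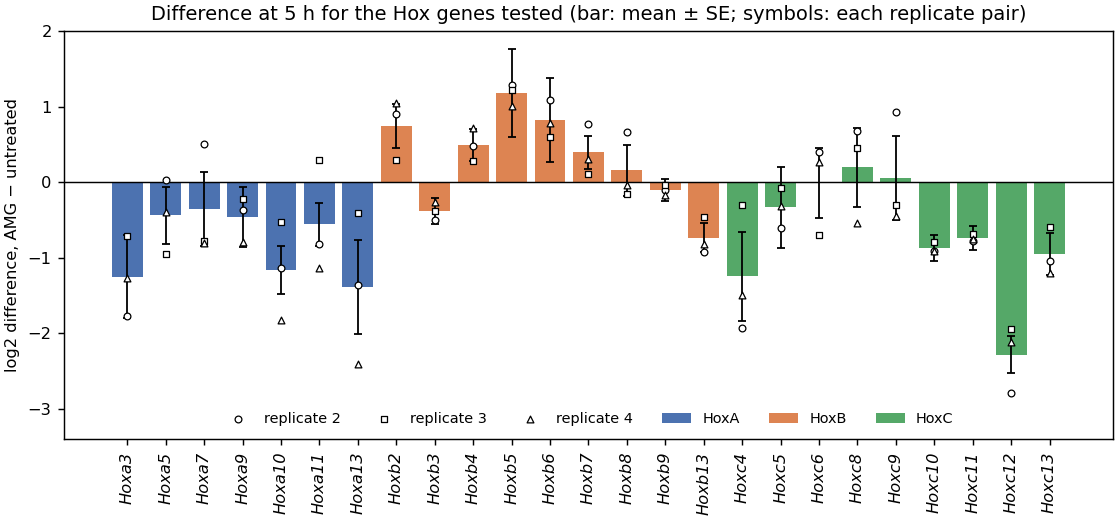
Difference at 5 h between AMG-treated and untreated libraries of replicates 2 to 4 on the log2(normalised count + 1) scale for the Hox genes tested, all but 1 of which are shown, ordered by cluster and paralogue number. Bars are means with the limma SE without the block, and symbols are the 3 replicate pairs. The HoxA bars lie below 0, the bars from Hoxb4 to Hoxb8 above 0 and those from Hoxc10 to Hoxc13 below 0, with the lowest at -2.29 for Hoxc12.

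Summed over the 39 genes, Hox reads made up 347 to 420 RPM in the 3 untreated and 280 to 318 in the 3 AMG-treated libraries of replicates 2 to 4, which did not overlap. HoxA took 61.5 to 104 RPM untreated and 35.9 to 56.6 with AMG, and HoxC 81.4 to 112 and 37.3 to 56.7. HoxB overlapped, with 187 to 224 untreated and 172 to 208 with AMG. Hoxb9 alone supplied 23.6 to 26.2% of the Hox reads untreated and 27.9 to 32.0% with AMG.

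Among other measures at 5 h, the summed keratinocyte markers and the ribosomal protein share did not overlap between the groups. The sums of the other marker lists overlapped. The summed level of the 10 keratinocyte markers was 156 to 312 untreated and 92.6 to 149 with AMG, most of it Dsp and Krt10, while Krt1, Krt5, Krt14 and Dsg3 were at 0 in these 6 libraries. The summed fibroblast markers were 663303 to 1041590 untreated and 543206 to 796279 with AMG, the leukocyte markers 239 to 1489 and 516 to 1843, and the cartilage and bone markers 1589 to 24158 and 1231 to 13364. Most of the cartilage sum was Col2a1, a collagen of cartilage, which followed the replicate number, with 21940, 252 and 1102 untreated and 12336, 200 and 691 with AMG in replicates 2, 3 and 4. Muscle markers summed to 3129 to 7632 and 1922 to 5784, endothelial markers to 16.8 to 239 and 8.91 to 116, and Schwann cell and melanocyte markers to 429 to 781 and 517 to 1251. Among all 7 marker lists 0 genes passed the test without the block (7 at an unadjusted p under 0.05). With the block, where 19.3% of all genes were called lower and 17.9% higher, 7 fibroblast markers were called lower and 1 higher of 11 tested. The block also called 2 of 3 keratinocyte markers lower, 2 of 5 cartilage and bone markers lower and 1 higher, the 1 endothelial marker and 1 of 2 muscle markers lower, and 1 of 6 leukocyte and 1 of 4 Schwann cell or melanocyte markers higher. Ribosomal protein genes took 2.03 to 2.53% of the reads untreated and 2.83 to 3.10% with AMG. Their part in the Hox results was not tested.

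The partners and regulators of Hox genes were on in most cases. All 9 TALE cofactors, all 20 Polycomb and Trithorax genes, 19 of 32 other homeobox, T-box and patterning factors and 5 of 10 RNAs from the Hox clusters were tested at 5 h. None of these lists had a gene called without the block, and 1, 4, 3 and 1 of their genes had an unadjusted p under 0.05, as 23.1% of all genes did. With the block, where limma called 17.9% of all genes higher and 19.3% lower, it called 1 of 9 cofactors higher and 2 lower, among them Meis3 with 0.44 and Meis2 with -0.77 on the log2 scale (limma adjusted p of 0.0269 and 0.0117 with the block).

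Of the 20 Polycomb and Trithorax genes the block called 4 lower and 1 higher, the former close to the 19.3% of all genes. Bmi1 and Cbx2 (Polycomb complex 1), Ezh2 (the Polycomb methyltransferase) and Ash1l (Trithorax group) had differences of -0.75, -0.99, -0.39 and -0.51, and Kmt2d, a methyltransferase of active chromatin, had 0.67. Of the RNAs of the clusters the block called Hoxa11os lower, by 0.76, from 166 to 97.6 in the mean, and none higher. Hotair, the intergenic RNA between Hoxc12 and Hoxc11, had means of 25.3 untreated and 19.2 with AMG, a difference of -0.38 (SE 0.37) that did not pass the test in either fit. Hottip, next to Hoxa13, had a mean of 3.94 and was not tested.

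Among the 19 other patterning factors tested the block called 4 higher and 7 lower, against 17.9% and 19.3% of all genes. The 5 with the smallest p were Tbx3 (from 227 to 882 in the mean, 2.00 on the log2 scale), Twist2 (127 to 287, 1.14), Prrx2 (2329 to 1433, -0.70), Prrx1 (3720 to 2707, -0.73) and Twist1 (929 to 599, -0.62), factors of mesenchyme and limb. Pitx1, the hindlimb gene, and Cdx2 and Cdx4, which act above Hox genes in the tail bud, had no read in any library. Tbx4, of the hindlimb, had means of 97.2 in replicate 1 and 94.3 in replicates 2 to 4, where the untreated and AMG-treated libraries of replicate 3 had 209 and 260 and the other 4 had 16.9 to 36.3. Tbx5, of the forelimb, had 64.1 and 24.6 in these 2 libraries, at most 5.50 in the other 4 and a mean of 0.284 in replicate 1.

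Replicate 1 gave the Hox genes over time, with 1 library per point. The spread in fits of it is therefore what treatment and time leave when added. It is not a spread between replicates, and it holds any change of the AMG effect with time. In an additive limma fit of treatment and time on its 8 libraries, 0 of 28 Hox genes differed between times (3 at an unadjusted p under 0.05), where 0.0148% of 13498 genes were called (13.2% at an unadjusted p under 0.05). By DESeq2 1 did, Hoxa7, a gene of the trunk, where 7.08% of all genes were called. Hoxa7 had 21.1, 26.2, 63.7 and 39.8 at 1, 5, 12 and 24 h untreated and 8.70, 20.1, 131 and 83.7 with AMG. In both series it was higher at 12 and 24 h than before. Hoxc12 had 234, 93.4, 247 and 270 untreated and 113, 95.9, 250 and 254 with AMG, low in both libraries of 5 h (limma adjusted p = 0.317 for time). Without the 2 libraries of high ribosomal protein share, Hoxa7 and Hoxc12 were called, in a fit that leaves 1 residual degree of freedom and called 14.9% of all genes.

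The same fit called 0 Hox genes higher and 0 lower with AMG over all times (0 and 3 at an unadjusted p under 0.05), where 0.519% and 0.0445% of all genes were called (4.68% and 3.99% at an unadjusted p under 0.05). Hoxb13 had the lowest estimate of the 28, with 3841, 6279, 5640 and 6151 untreated and 6220, 1700, 987 and 1904 with AMG at 1, 5, 12 and 24 h. At 1 h the treated library was higher, and from 5 h on it was 3.69-fold, 5.71-fold and 3.23-fold lower. The estimate over all times was -1.35 (SE 0.49, limma adjusted p = 0.478), and Hoxb13 was called lower when the untreated or the AMG-treated library of 1 h was left out. Either omission takes away the only pair in which it was higher with AMG, so this call rests on the pairs of 5, 12 and 24 h. The share of all genes called in these fits is not given here. Hoxb13 stood at 184 to 350 RPM in the untreated libraries of replicate 1 and at 44.8 to 54.5 in those of replicates 2 to 4, while Hoxb9 stood at 92.1 to 139 and at 86.3 to 106. The tables were normalised separately and this difference between cultures was not tested.

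The other posterior genes took different courses, and the pairs of 1 h and 5 h each hold a library of high ribosomal protein share. Hoxc11 had 195, 428, 171 and 113 untreated and 111, 298, 317 and 295 with AMG, below its partner at 1 and 5 h and above it at 12 and 24 h. Hoxa11 showed the same crossing, with 166, 252, 120 and 108 untreated and 111, 156, 220 and 294 with AMG. Hoxc10 had 232, 392, 362 and 301 untreated and 256, 302, 486 and 422 with AMG, below its partner at 5 h only. Hoxc13 stayed below at every time, with 507, 911, 583 and 597 untreated and 240, 452, 522 and 521 with AMG, and so in 4 of 4 pairs (estimate -0.61, SE 0.25, limma adjusted p = 0.550). Hoxa10 had 279, 654, 320 and 266 untreated and 242, 199, 290 and 322 with AMG, and was higher with AMG at 24 h only. Hoxa13 had 160, 130, 124 and 141 untreated and 78.2, 69.6, 158 and 152 with AMG, below its partner at 1 and 5 h and above it at 12 and 24 h.

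Hoxb9 was the most even of the abundant genes, with 2376, 2085, 2494 and 2116 untreated and 2048, 2029, 2552 and 2497 with AMG. Hoxa9 had 107, 170, 102 and 98.0 untreated and 60.9, 90.5, 118 and 92.7 with AMG, and Hoxc9 had 22.9, 27.9, 29.3 and 19.1 and 45.2, 31.7, 50.5 and 26.1. The genes called with the block in HoxB did not all keep their direction. Hoxb5 had 176, 134, 117 and 110 untreated and 83.5, 208, 178 and 143 with AMG, higher from 5 h on. Hoxb6 had 253, 551, 292 and 266 untreated and 339, 393, 376 and 441 with AMG, lower at 5 h only. Hoxb2 had 187, 464, 184 and 163 untreated and 396, 184, 153 and 129 with AMG, higher at 1 h only, whereas it was higher at 5 h in replicates 2 to 4. Both falls at 5 h are set against the untreated library of high ribosomal protein share. Hoxb6 and Hoxb2 had their highest values of all libraries there, and without it replicate 1 has no pair at 5 h.

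**Figure D4:**
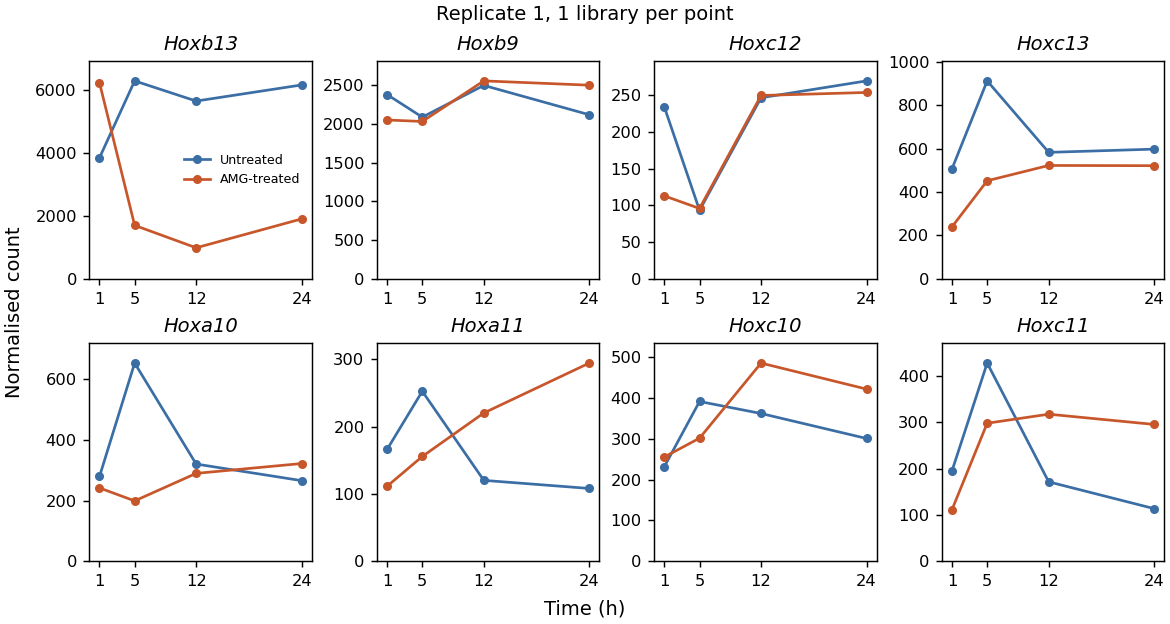
Normalised counts (y axes, from 0) of 8 Hox genes at 1, 5, 12 and 24 h in the untreated (blue) and AMG-treated (orange) libraries of replicate 1, with 1 library per point and no error. Hoxb13 goes from 6220 at 1 h to 987 at 12 h in the AMG-treated libraries while the untreated ones stay between 3841 and 6279, and the lines of Hoxa11 and Hoxc11 cross between 5 and 12 h.

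Counted over the 28 genes that were on, 11 had a log2 ratio of treated to untreated below -1 and 1 above 1 at 1 h, where 10.7% and 11.3% of 13498 genes did. At 5 h 8 were below -1 and 0 above 1 (12.6% and 13.3% of all genes). The pairs of 1 h and 5 h hold the 2 libraries of high ribosomal protein share. At 12 h only Hoxb13 was below -1 and Hoxa7 and Hoxc8 were above 1 (6.9% and 5.93% of all genes). At 24 h Hoxb13 was again below -1, at -1.69, and 7 genes were above 1, namely Hoxa3, Hoxa5, Hoxa7, Hoxa11, Hoxb7, Hoxc4 and Hoxc11, with 1.05 to 1.96 (8.05% and 6.05% of all genes). The median ratio of the 28 was -0.81, -0.69, 0.36 and 0.40 at 1, 5, 12 and 24 h, beside -0.06, -0.01, -0.01 and 0.02 over all genes. Without the 2 libraries, limma called Hoxa11, Hoxb7 and Hoxc11 higher and Hoxb13 lower with AMG, with 1 residual degree of freedom. It called 5.77% of all genes higher and 6.29% lower. Since 1 h and 5 h then kept 1 library each, these calls rest on the pairs of 12 and 24 h only. At 1 and 5 h Hoxa11, Hoxb7 and Hoxc11 were lower with AMG.

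Whether the AMG effect at 1, 12 or 24 h differed from that at 5 h was tested in edgeR on all 14 libraries with the table as a batch. No Hox gene of 26 passed, as none of 13413 genes did (0%), and 7 had an unadjusted p under 0.05, against 3.48% of all genes. Hoxc11 and Hoxb13 had the smallest unadjusted p among the Hox genes (0.0011 and 0.0083, edgeR adjusted p = 0.9999 for both). That fit leaves out the pairing of the 5 h libraries. With the replicate number as a block, an alternative chosen after seeing the data, again 0 Hox genes and 0% of all genes passed (8 Hox genes and 6.64% of all genes at an unadjusted p under 0.05), and edgeR gave Hoxc11 and Hoxb13 an adjusted p of 0.407 and 0.595. Since 3 of the 4 times had 1 library per treatment, this count does not show that the effects were alike.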

How the data were processed

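RNA was measured by stranded poly(A) sequencing (50 bp single-end reads). Per the labels and the methods of a later paper that used the 5 h data, reads were aligned to mm10 with TopHat2 (2.0.13). They were counted per gene with HTSeq (0.5.3p3). That paper deposited a series of its own. Its methods name the same tools and versions as the labels and were taken to hold here too. The annotation and strand setting are not given in the sources used here. The deposited values are a normalised signal, that is read counts the authors divided by DESeq size factors, separately for replicate 1 and replicates 2 to 4, in which 100% of values were whole reads within 0.1. All 43472 rows named a gene, and 90.8% of symbols had a gene model in GENCODE M21, which gave coordinates, exon lengths and homeoboxes.

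Groups came from the sample titles. The main test at 5 h was limma (3.58.1) with a trend on log2(normalised count + 1), on genes with a mean of at least 10, with Benjamini-Hochberg adjustment over all genes and calls at an adjusted p under 0.05. Log2 differences on this scale understate changes of low genes. A limma fit that also held the replicate number (the block), tests of the recovered reads in edgeR (4.0.16) and DESeq2 (1.42.0), other pseudocounts, filters and scalings, a length correction and leaving out libraries were alternatives. On recovered reads edgeR called 1 Hox gene at 5 h and DESeq2 called 6, and the shares of all genes called in these fits are not given here. Deviations from the group means correlated across 13096 genes between libraries of the same number with r = 0.65, 0.76 and 0.70 and between different numbers with r = -0.59 to 0.12. Deviations cancel within a group, so the values between different numbers are not independent of those of the same number. From the latter, the numbers, which the sample titles give, were taken to pair the samples. Results with the block are printed beside those without. Replicate 1 was fitted with treatment and time added, and differences of AMG effects were tested in edgeR (quasi-likelihood). The main fits and some alternatives were run on simulated data that held no difference between replicate numbers. The DESeq2 fit of time, the length correction and the fits without some libraries were not. RPM values, computed here, used all reads on genes. Limits from a count of 0 cover counting error only. Genes given with values in every library were those called at 5 h with or without the block, those that differed between times and active members of paralogue groups 9 to 13. Members and lists were chosen with earlier results of these data known. Amino acid sequences were not used here, and a few genes counted in these lists are not reported here by name.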

Additional observations from a re-analysis of the deposited data

Results flagged for a closer look

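RPM summed over all Hox genes and over each cluster were compared among the 4 libraries of each group at 5 h to find any that lay far from the rest, where replicate 1 is set beside replicates 2 to 4 (10 comparisons, of which chance marks about 1 in 20). The untreated library of replicate 1 stood apart for HoxB, with 467 RPM against 187 to 224 in replicates 2 to 4, of which Hoxb13 alone gave 277. It also stood apart for HoxD, with 3.18 against 0.0612 to 0.548. This library had the highest ribosomal protein share of the 14 (6.35%). The untreated libraries of replicate 1 at 1, 12 and 24 h had shares of 2.07 to 2.59%. Their HoxB sums were 369, 538 and 553 RPM, also above those of replicates 2 to 4, and their HoxD sums 0.799, 1.22 and 1.74. The part of the ribosomal protein share in these differences was not tested.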

How the results depend on the processing

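The numbers of Hox genes called at 5 h depended on the pairing. With the replicate block limma called 3 higher and 7 lower in place of 0 and 1, edgeR with the replicate block gave 3 and 7, and a length correction with the replicate block gave 3 and 8. Unpaired, DESeq2 called 6 lower, and edgeR on 4 replicates with the table as batch called 0 lower. Of all genes, limma with the block called 17.9% higher and 19.3% lower. The shares of all genes under the other 5 h settings are not given here, so their counts do not single out the Hox genes. Leaving out 1 library in turn gave 0 to 1 higher and 0 to 5 lower, and with the block leaving out a replicate number gave 1 to 5 higher and 6 to 12 lower (chosen after seeing the data). Leaving out the AMG-treated library of replicate 3 gave 5 lower (Hoxa10, Hoxb13, Hoxc10, Hoxc11 and Hoxc12) and leaving out that replicate number with the block gave 12. Over time, DESeq2 called 1 gene and leaving out the untreated 5 h and AMG-treated 1 h libraries (chosen after seeing the data) called 2, in place of 0. The same omission called 3 higher and 1 lower with AMG, which rests on the pairs of 12 and 24 h only. Leaving out 1 library gave 0 to 1 lower with AMG over all times. The replicate block (chosen after seeing the data) left the count of Hox genes whose AMG effect differed between times at 0. A limit of 50 left 17 genes on in replicate 1. For the 10 genes called at 5 h with or without the block, none of 220 values under the 22 alternatives turned in direction: 155 kept their side of the threshold, 60 passed it and 5, all of Hoxc12, no longer did. Why the counts moved was not tested. Genes under about 3 reads, such as most of HoxD, could not be compared at this depth.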
